A study of Homo sapiens with 9 samples.

Results

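The 10 intestinal Wnt/beta-catenin target genes described here, from a klotho overexpression study, are AXIN2, LGR5, NKD1, RNF43, ZNRF3, TCF7, LEF1, ASCL2, NOTUM and SP5. They were chosen by name, as established readouts of the pathway in the intestine, and for each the row of the deposited table that names it was taken. Of the 10 genes, 9 had such a row, and each of those had exactly 1 probe set. No row used here names TCF7, so it has no value below. The 9 are part of 17958 genes analysed. None of the 9 passed the test in any of the 3 comparisons, and the widest bounds of their 95% intervals are 1.17-fold and 0.883-fold. LGR5, LEF1, ASCL2 and SP5 lay on every array in a range that cannot be told from absence, and NOTUM on some arrays. For values in that range the intervals bound a change in signal and not in transcript. NKD1 lay just above that range.

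The cells were HCT 116, a human colorectal cancer line, and all 9 arrays come from this line. The KL-FL group (3 arrays) was transfected with a vector for mouse full-length klotho, the KL1 group (3 arrays) with a vector for the mouse KL1 subdomain, and the control group (3 arrays) with the empty vector pcDNA3. RNA was taken 24 hours after transfection, so every group, the control included, had been exposed to plasmid and transfection reagent. The reagent was 1 of 2 products, and the labels do not say which array had which. The values are log2 expression, on which a difference of 1 is a doubling, and arrays rather than cultures are counted, since the labels do not say that the replicates came from separate cultures.

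Wnt ligands bind Frizzled receptors together with LRP5 or LRP6, which stops a cytoplasmic destruction complex from degrading beta-catenin. Beta-catenin then enters the nucleus, joins TCF/LEF factors on DNA and raises a set of target genes, many of which feed back on the pathway. In the intestine this program maintains crypt stem cells, and it is switched on in most colorectal cancers. HCT 116 cells carry an activating mutation of beta-catenin itself, and how far their pathway responds to ligand was not tested here. Klotho, best known as a co-receptor of the hormone FGF23, has been described as a secreted Wnt antagonist, and the target genes ask whether either klotho vector moved the output of the pathway.

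The line read as epithelial, though not on every marker. The 12 epithelial genes averaged from 3.77 (VIL1) to 10.7 (KRT8), with a lower quartile of 5.89 and a median of 8.19. EPCAM lay between 9.72 and 9.84 on the 9 arrays, KRT8 between 10.4 and 10.8, KRT18 between 10.0 and 10.3 and CDH1 between 8.45 and 8.59, while CDX2 lay between 6.30 and 6.596 and VIL1, an intestinal brush-border gene, between 3.71 and 3.86. The 9 leukocyte genes averaged from 2.74 (PTPRC) to 6.17 (CD68, a lysosomal protein of macrophages that other cells also make, named after its value was seen), with a median of 3.39. PTPRC, which marks all leukocytes, stayed between 2.70 and 2.77, and the endothelial gene PECAM1 between 3.37 and 3.56, while COL1A1, a fibroblast collagen, lay between 5.69 and 5.94. The summed level of 11 fibroblast and endothelial genes, as log2, was 7.39 to 7.46 with KL-FL, 7.40 to 7.41 with KL1 and 7.37 to 7.38 in control. The sums of the other marker lists overlapped control with both vectors. For the epithelial genes they were 12.38 to 12.60, 12.51 to 12.59 and 12.55 to 12.56 in the same order. For the leukocyte genes they were 7.18 to 7.32, 7.27 to 7.31 and 7.27 to 7.31. No detection call comes with the table. For scale, 23 genes specific to other tissues averaged from 2.77 to 5.40, with a median of 3.83, and a value in that range cannot be told from absence of the transcript. LGR5, LEF1, ASCL2 and SP5 lay inside it on every array, and NOTUM on 3 of 9 arrays. NKD1, at 5.46 to 5.52, and the other NOTUM values, up to 5.49, lay just above its upper end and below COL1A1. VIL1 lay inside it on every array as well. Human KL, the gene that the vectors carry in its mouse form, averaged 3.19 with KL-FL, 3.19 with KL1 and 3.05 in control. Its differences from control were 0.14 (SE 0.040) and 0.15 (SE 0.040), with adjusted p of 0.637 and 0.927 in limma. The unadjusted p was 0.0072 and 0.00574 in limma, and all 3 arrays of each klotho group lay above all control arrays. With KL-FL 7.13% of all genes lay above control in that way, and with KL1 9.47% did not overlap in either direction. The averages of KL lie inside the same range, so expression from the vectors cannot be read from this row. KL-FL replicate 3 and KL1 replicate 2 stood slightly apart, with median correlations to the other 8 arrays of 0.997 and 0.998 across genes, against 0.999 for the remaining 7.

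The promoter of SP5 is shown because it holds the letters of the TCF/LEF recognition site 3 times. RefSeq (GRCh38.p14) windows from 250 bases before to 50 bases after a start site were at hand for 4 of the 10 genes, RNF43, TCF7, LEF1 and SP5, in 6 windows. They were searched on both strands for CTTTG followed by any pair of the letters A and T, and no match overlapped another in the SP5 window. A match was found in 2 of the 6 windows, the SP5 window and 1 of the 2 TCF7 windows, against 13.8% of the 35116 windows in the table. The 250 bases before the SP5 start site, chr2:170715087-170715336 on the plus strand, hold 3 matches, printed in capitals, which begin 148, 109 and 84 bases before the start site:
SP5: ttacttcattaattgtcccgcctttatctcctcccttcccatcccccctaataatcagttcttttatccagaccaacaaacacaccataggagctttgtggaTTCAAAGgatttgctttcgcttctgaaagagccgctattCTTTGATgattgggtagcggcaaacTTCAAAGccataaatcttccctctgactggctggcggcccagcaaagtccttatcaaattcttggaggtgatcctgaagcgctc
The first and the last match read TTCAAAG, which is CTTTGAA on the other strand. A match of letters is a description and not a binding site, and binding was not measured.

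AXIN2, NKD1 and NOTUM are feedback inhibitors that act on the signal from inside the cell or on the ligand. AXIN2, a scaffold of the destruction complex and the most general readout of the pathway, read 6.20, 6.21 and 6.19 with KL-FL, 6.20, 6.15 and 6.19 with KL1, and 6.20, 6.22 and 6.20 in control. All 9 values lie within 0.071 of each other and the groups overlap. The log2 difference from control was -0.0036 for KL-FL (SE 0.027, 95% interval -0.066 to 0.059) and -0.028 for KL1 (SE 0.027, -0.090 to 0.035). AXIN2 also had a narrow spread between arrays of a group, with a pooled SD of 0.018 where the median of all genes was 0.061, so its intervals are the narrowest of the 9.

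NKD1, which binds Dishevelled and restrains the pathway, read 5.49, 5.48 and 5.504 with KL-FL, 5.52, 5.49 and 5.46 with KL1, and 5.52, 5.495 and 5.49 in control. The 3 groups overlap, with 2 of 3 KL-FL arrays below all control arrays. Its differences from control were -0.011 (SE 0.029, -0.076 to 0.054) with KL-FL and -0.010 (SE 0.029, -0.075 to 0.055) with KL1.

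NOTUM, a secreted enzyme that inactivates Wnt ligands by removing their lipid, read 5.44, 5.44 and 5.32 with KL-FL, 5.48, 5.39 and 5.33 with KL1, and 5.45, 5.47 and 5.49 in control. It was the 1 gene of the 9 whose groups did not overlap in a comparison with control: all 3 KL-FL arrays lay below all 3 control arrays, by 0.0024 at the closest. Over all genes 10.4% did not overlap in that comparison, 3.25% with KL-FL below, so 1 of 9 is near the background. The log2 difference was -0.067 (SE 0.048, interval -0.18 to 0.042, adjusted p = 0.753 in limma) with KL-FL and -0.069 (SE 0.048, -0.18 to 0.040, adjusted p = 0.927 in limma) with KL1. Both comparisons use the same control arrays. Leaving out KL-FL replicate 3 brought the KL-FL difference to -0.025. Leaving out KL1 replicate 3 brought the KL1 difference to -0.034, and leaving out KL1 replicate 1 brought it to -0.11.

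**Figure D1:**
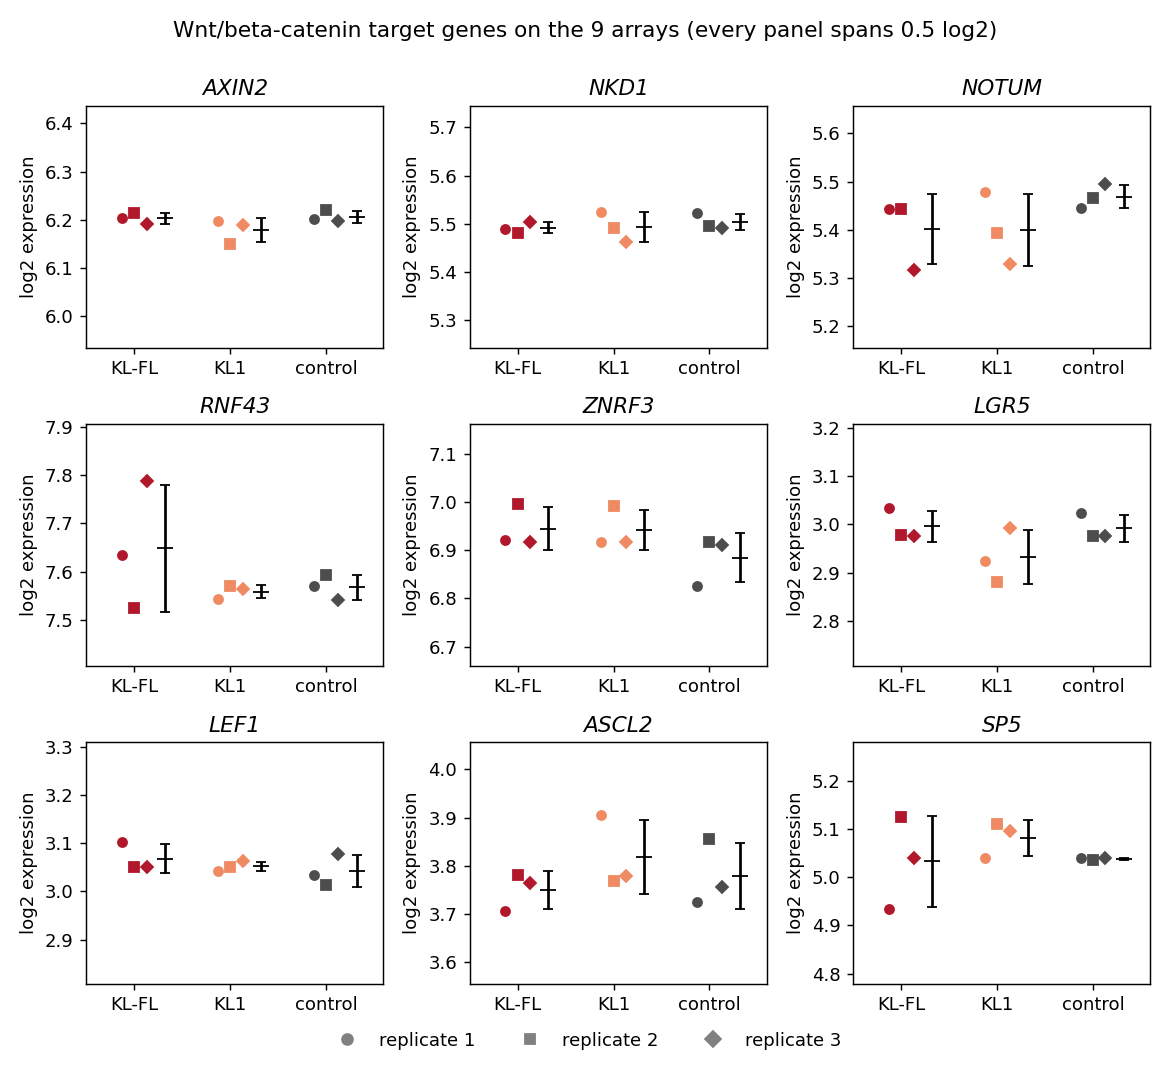
Deposited log2 expression of the 9 measured Wnt/beta-catenin target genes on each array, with KL-FL, KL1 and control from left to right, symbols for replicates, and the mean with its SD (n = 3) beside each group. Every panel spans 0.5 on the log2 scale, and the groups overlap in all panels except KL-FL against control for NOTUM, where the gap is 0.0024.

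RNF43 and ZNRF3 are related transmembrane ubiquitin ligases that remove Frizzled receptors from the cell surface. RNF43 read 7.63, 7.52 and 7.79 with KL-FL, 7.54, 7.57 and 7.56 with KL1, and 7.57, 7.59 and 7.54 in control. The highest and the lowest of its 9 values were both KL-FL arrays, replicates 3 and 2, so the KL-FL group was wide (SD 0.13) where KL1 (SD 0.014) and control (SD 0.026) were narrow. The difference between KL-FL and control was 0.081 (SE 0.058, interval -0.051 to 0.21, adjusted p = 0.753 in limma), the largest in size of the 9 genes. Leaving out KL-FL replicate 3 brought it to 0.012, and leaving out KL-FL replicate 2 to 0.14. The KL1 difference was -0.0091 (SE 0.058, -0.14 to 0.12).

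ZNRF3 read 6.92, 6.996 and 6.92 with KL-FL, 6.92, 6.99 and 6.92 with KL1, and 6.83, 6.92 and 6.91 in control. In each klotho group 2 of 3 arrays lay above every control array, but control replicate 1 was the lowest of all 9 and the other two controls sat beside the lower klotho arrays. The differences from control were 0.060 (SE 0.040, -0.030 to 0.15) with KL-FL and 0.057 (SE 0.040, -0.033 to 0.15) with KL1. Without control replicate 1 they were 0.030 and 0.028. Between KL1 and control arrays of the same replicate number, ZNRF3 differed by 0.092, 0.073 and 0.0067, higher in 3 of 3 pairs. Blocked on replicate number, its adjusted p was 0.908 in limma. AXIN2 was lower with KL1 in 3 of 3 pairs, by -0.0053, -0.071 and -0.0070 (adjusted p = 0.925 in limma with the block). Of the 9 genes these 2 had the same sign in all 3 pairs, as did 25.4% of all genes.

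LGR5, the receptor for R-spondins that marks crypt stem cells, read 3.03, 2.98 and 2.98 with KL-FL, 2.93, 2.88 and 2.99 with KL1, and 3.02, 2.98 and 2.98 in control. With KL1, 2 of 3 arrays lay below all control arrays and the third lay among them. The KL1 difference was -0.059 (SE 0.037, -0.14 to 0.025), the smallest unadjusted p of the 9 genes in that comparison at 0.144 in limma. Leaving out KL1 replicate 2 brought it to -0.033, and leaving out KL1 replicate 3 to -0.089. The KL-FL difference was 0.0035 (SE 0.037, -0.080 to 0.087). All 9 values lie in the range of the genes of other tissues given above.

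LEF1, ASCL2 and SP5 encode transcription factors. LEF1, which like TCF7 carries beta-catenin to DNA, read 3.10, 3.05 and 3.05 with KL-FL, 3.04, 3.05 and 3.06 with KL1, and 3.03, 3.01 and 3.08 in control. The 3 groups overlap, and the differences from control were 0.026 (SE 0.031, -0.043 to 0.095) with KL-FL and 0.0099 (SE 0.031, -0.059 to 0.079) with KL1. With KL-FL replicate 1 left out the KL-FL difference of LEF1 was 0.0086, and with control replicate 3 left out it was 0.044. With array weights it was 0.054 (adjusted p = 0.219 in limma).

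ASCL2, a basic helix-loop-helix factor of intestinal stem cells, read 3.71, 3.78 and 3.76 with KL-FL, 3.91, 3.77 and 3.78 with KL1, and 3.73, 3.86 and 3.76 in control. One array of KL1 was the highest of the 9, above every control. The differences from control had opposite signs, -0.029 (SE 0.049, -0.14 to 0.082) with KL-FL and 0.039 (SE 0.049, -0.072 to 0.15) with KL1, and KL-FL minus KL1 was -0.068 (SE 0.049, -0.18 to 0.043, adjusted p = 0.855 in limma). With KL1 replicate 1 left out, that difference was -0.024.

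SP5, a zinc-finger repressor whose promoter is printed above, read 4.93, 5.12 and 5.04 with KL-FL, 5.04, 5.11 and 5.10 with KL1, and 5.04, 5.04 and 5.04 in control. The KL-FL arrays lay on both sides of the controls, which were almost identical (SD 0.0017), and 2 of 3 KL1 arrays lay above them. The differences from control were -0.0055 (SE 0.047, -0.11 to 0.10) with KL-FL and 0.044 (SE 0.047, -0.062 to 0.15) with KL1. With array weights, which gave KL-FL replicate 1 a weight of 6.76 and KL-FL replicates 2 and 3 weights of 0.554 and 0.265, the KL-FL difference was -0.086 (adjusted p = 0.213 in limma). KL-FL minus KL1 was then -0.13 (adjusted p = 0.175 in limma), against -0.049 without weights. Of the 9 SP5 values 4, 2 of them controls, are the same number to every deposited digit.

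Set side by side, 4 of the 9 genes were higher and 5 lower with KL-FL than in control, with a median log2 difference of -0.0036, where 57.2% of all genes were higher and their median was 0.0099. Of the 9, 0 passed limma at an adjusted p of 0.05, where 1 gene of 17958, 0.00557%, did, and 0 had an unadjusted p under 0.05, where 7.16% of all genes did. The adjusted p-values of the 9 ran from 0.738 to 0.986 in limma. Their intervals all included 0 and together reached from -0.18 (NOTUM) to 0.21 (RNF43), or from 0.885-fold to 1.16-fold. Each interval is that of its own gene, with no allowance for the number of genes. Here and below, those of LGR5, LEF1, ASCL2 and SP5 rest on values that cannot be told from absence.

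With KL1, 4 of the 9 genes were higher and 5 lower than in control, with a median of -0.0091, where 52% of all genes were higher and their median was 0.0026. Again 0 of the 9 passed limma, where 0.00557% of all genes did, and 0 had an unadjusted p under 0.05, where 5.1% of all genes did. The groups did not overlap in 0 of the 9 genes, where 9.47% of all genes did not. Adjusted p-values ran from 0.927 to 0.99 in limma. The intervals reached from -0.18 (NOTUM) to 0.15 (ASCL2), or from 0.883-fold to 1.11-fold. With the replicate number as a block the 1 call over all genes in this comparison was lost, and the count for the 9 genes was again 0.

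Between the klotho vectors, 6 of the 9 genes were higher with KL-FL and 3 lower than with KL1, with a median of 0.0026, where 54.3% of all genes were higher. The largest difference was that of RNF43 at 0.090 (SE 0.058, interval -0.042 to 0.22, adjusted p = 0.855 in limma), which was 0.021 with KL-FL replicate 3 left out and 0.15 with KL-FL replicate 2 left out. LGR5 differed by 0.063 (SE 0.037, -0.021 to 0.15), or by 0.037 with KL1 replicate 2 left out. In limma 0 of the 9 passed, where 0% of all genes did, 0 had an unadjusted p under 0.05, where 5.05% did, and the groups did not overlap in 0 of the 9, where 6.88% of all genes did not. A moderated F test over the 3 groups gave 0 of 9 as well, with unadjusted p from 0.217 (LGR5) to 0.91 (NKD1), and 5.45% of all genes were under 0.05. The gene that F test called was DDIT3, the ER stress factor CHOP, which in the same fit was higher by 0.65 (SE 0.059) with KL-FL and by 0.78 (SE 0.059) with KL1. Those differences lie outside every interval of the 9 Wnt target genes. DDIT3 was the 1 gene called in these same arrays, so the contrast is a description. Its calls were lost under some of the alternatives given below.

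**Figure D2:**
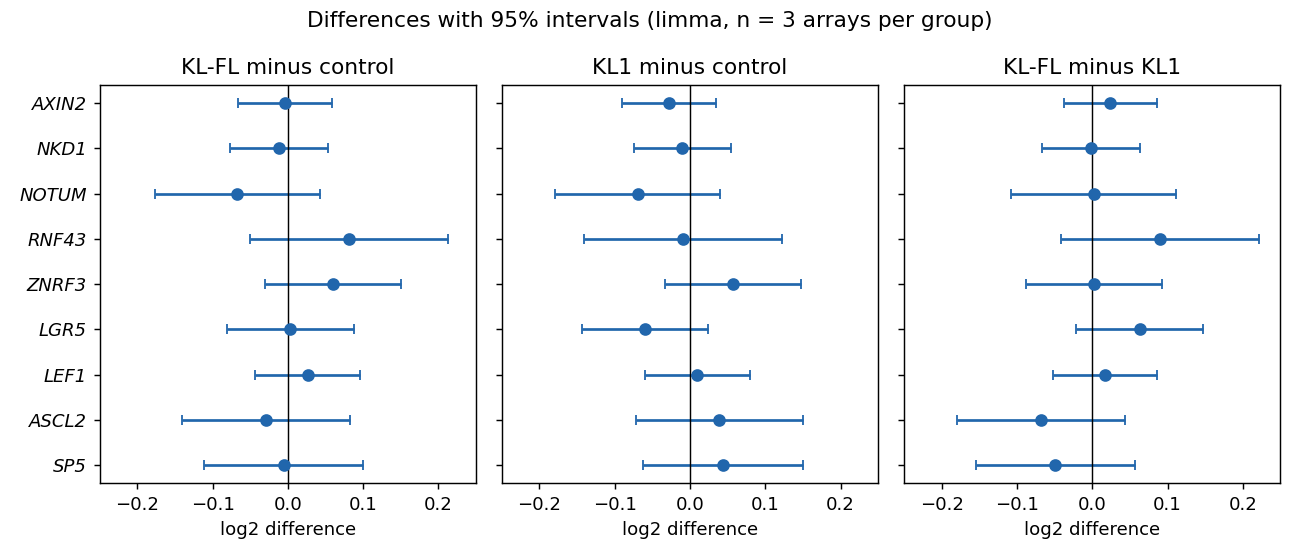
Log2 difference of each of the 9 genes in the 3 comparisons, as points with 95% intervals from limma (n = 3 arrays per group). Every interval includes 0, and the widest bounds are -0.18 and 0.22.

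**Figure D3:**
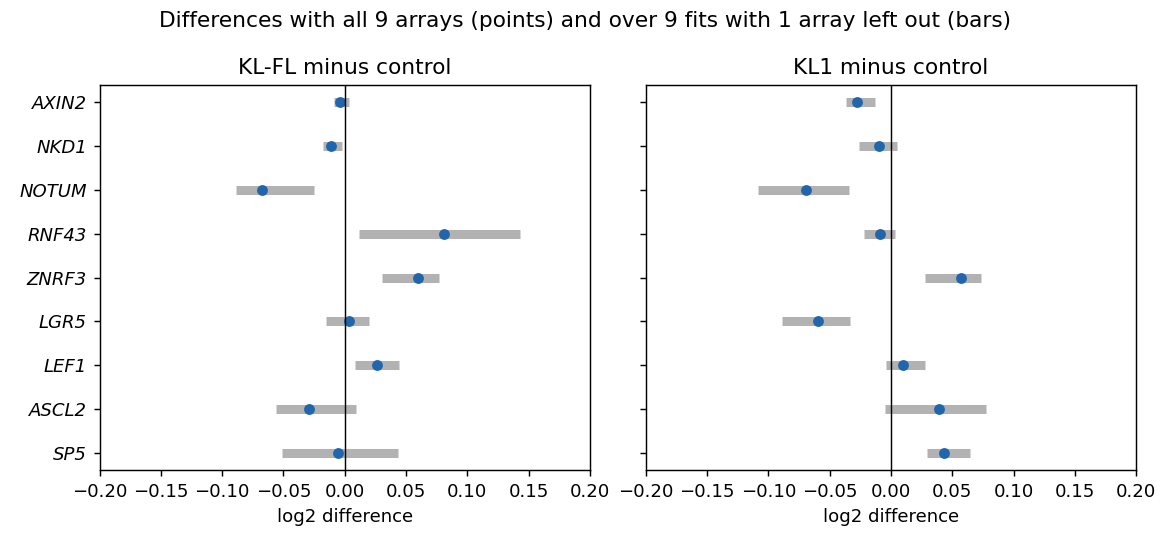
Log2 difference from control of each gene over all 9 arrays (points) and the range over 9 fits that each leave out 1 array (bars), for KL-FL and KL1. The widest bar is that of RNF43 with KL-FL, from 0.012 to 0.14.

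The deposited values of the 9 genes had no common pattern across the arrays. Among their 36 pairs Pearson's r over the 9 arrays had a median of -0.083 and ran from -0.60 (RNF43 and NOTUM) to 0.67 (AXIN2 and LGR5), with 16 pairs above 0. These r are descriptions over 9 arrays that share groups, normalization and array-wide deviations. NOTUM was most like AXIN2 (r = 0.42), NKD1 most like NOTUM (0.39), ZNRF3 and SP5 most like each other (0.49), LEF1 most like LGR5 (0.30), ASCL2 most like NKD1 (0.26) and RNF43 most like LGR5 (0.18). Over all 17957 other genes, those closest to AXIN2 were ZNF75D (r = 0.96), TBP (0.96) and PCNP (0.95). AXIN2 itself moved by only 0.071 in all, so these r follow very small deviations. The median pooled SD of the 9 genes was 0.046, and LGR5, LEF1, ASCL2 and SP5 cannot be told from absence. Whether the transcripts vary together is therefore not settled by these r.

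The rest of the pathway was read from 6 lists with 127 measured genes. With KL-FL 0 of the 127 passed limma, and 3 higher and 2 lower genes had an unadjusted p under 0.05, which is 5 of 127 against 7.16% of all genes. With KL1 0 passed, with 3 higher and 4 lower under 0.05, against 5.1% of all genes. The lists were chosen with earlier results of these arrays known, and their counts and medians are descriptions.

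Ligands and their partners, 25 genes, had medians of -0.025 with KL-FL and 0.029 with KL1. All but WNT3, WNT9A, WNT16 and WLS averaged, in every group, inside the range of the genes of other tissues given above. These medians therefore rest mostly on values that cannot be told from absence. WNT3A, a ligand of the beta-catenin branch, differed by -0.14 (SE 0.053) with KL-FL and WNT8B by 0.12 (SE 0.050), while with KL1 WNT9B differed by 0.14 (SE 0.040) and WNT16 by -0.12 (SE 0.043). Of these WNT3A (4.32 with KL-FL, 4.46 in control), WNT8B (3.53 and 3.41) and WNT9B (5.28 with KL1, 5.14 in control) averaged inside that range. Receptors and Dishevelled proteins, 20 genes, had medians of -0.030 and -0.012. Among them FZD2 and FZD9, both Frizzled receptors, differed by -0.17 (SE 0.073) and 0.13 (SE 0.063) with KL-FL. FZD9 averaged 5.19 with KL-FL and 5.06 in control, inside the range that cannot be told from absence. With KL1 the Dishevelled gene DVL2 differed by -0.12 (SE 0.039) and the co-receptor LRP5 by -0.072 (SE 0.034).

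The destruction complex and its regulators, 14 genes, had medians of 0.0069 with KL-FL and -0.0085 with KL1. APC, the tumour suppressor at the core of the complex, averaged 6.23 with KL-FL and 6.13 in control, a difference of 0.095 (SE 0.038, unadjusted p = 0.0337 and adjusted p = 0.688 in limma). TNKS2, a tankyrase that marks axins for degradation, differed by 0.090 (SE 0.032), and both genes lay above control on all 3 KL-FL arrays, as did 3 of the 14 in the list and 7.13% of all genes. With KL1 the kinase gene CSNK1D differed by -0.098 (SE 0.048) and TNKS by -0.059 (SE 0.035).

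Nuclear effectors, 18 genes, had medians of 0.0020 with KL-FL and 0.022 with KL1. The coactivators EP300 and CREBBP differed by 0.092 (SE 0.051) and 0.076 (SE 0.044) with KL-FL. With KL1 the corepressor TLE1 differed by -0.12 (SE 0.040), and TCF7L2, the main TCF factor of intestinal epithelium, averaged 9.15 with KL1 and 9.29 in control, a difference of -0.14 (SE 0.064, adjusted p = 0.927 in limma) with all 3 KL1 arrays below control, as in 4.34% of all genes.

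Secreted and membrane antagonists, 16 genes, had medians of 0.035 with KL-FL and 0.014 with KL1. APCDD1, a membrane inhibitor of the pathway, differed by 0.098 (SE 0.048) with KL-FL, TPBG by -0.11 (SE 0.063) with KL-FL and -0.16 (SE 0.063) with KL1, and KREMEN2, a receptor for DKK proteins, by 0.12 (SE 0.053) with KL1. A further 34 genes described as Wnt targets had medians of 0.0037 and -0.0025. With KL-FL the growth factor gene FGF20 differed by 0.074 (SE 0.041) and SMOC2 by -0.044 (SE 0.026). With KL1 the homeobox gene PROX1 differed by 0.13 (SE 0.062) and the nuclear receptor gene PPARD by -0.096 (SE 0.047). None of the genes named from these lists passed limma over all genes.

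**Figure D4:**
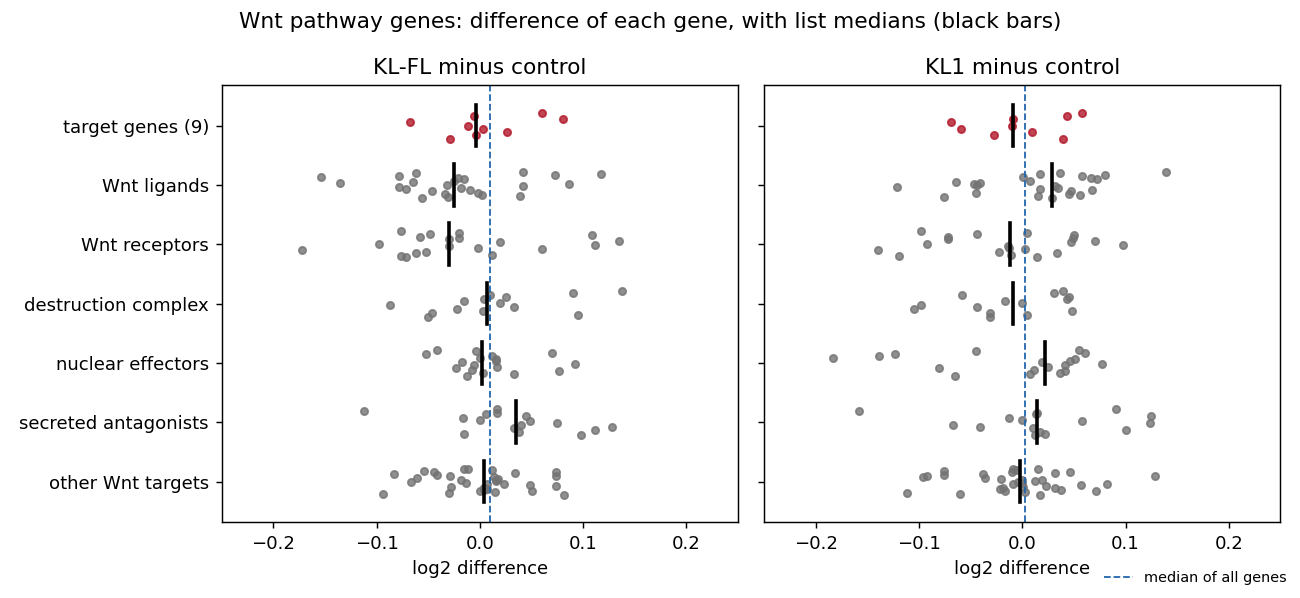
Log2 difference from control of the 9 target genes (red) and of each gene in 6 other Wnt pathway lists (grey) for KL-FL and KL1, with black bars at list medians and a dashed line at the median of all genes. List medians lie between -0.030 and 0.035, and no gene of the 6 lists differs by more than -0.18 or 0.14.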

How the data were processed

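Per the submitters' processing notes, which name Partek 6.6, and the single deposited table, the starting point was log2 expression of 33297 probe sets on 9 arrays. The labelling input was 100 ng of total RNA. How the authors normalized and summarised probes is not given in the sources used here; the log2 scale was read from the values (1.79 to 12.4). Probe sets were named by the platform annotation: 19181 name 1 gene, 2055 several, and 12061 are unnamed here. The brightest probe set stood for each gene. limma 3.58.1 in R 4.3.3 was fitted to all genes and 3 groups with no covariate, two-sided, with Benjamini-Hochberg adjustment over 17958 genes, and was tested on simulated data. Intervals use its moderated 8.88 degrees of freedom. Array number limits the precision, and p-values measure the spread between arrays, which may be technical.

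The genes and lists were chosen with earlier results of these data known. The text names all 10 target genes, the 2 genes of each pathway list with the smallest p in each comparison with control, the 3 genes most like AXIN2, and set marker and check genes. The labels give each group replicates 1 to 3. Deviations of same-numbered KL1 and control arrays correlated at 0.113, 0.322 and 0.186, and with KL-FL the highest was 0.0974. Differently numbered arrays were not compared, so whether the numbers pair the arrays is not settled. Alternatives covered normalization, block, weights, variance, filter, probe sets and each array left out.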

Additional observations from a re-analysis of the deposited data

How the results depend on the processing

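Of the 9 target genes 0 were called in any of the 3 comparisons or the F test under any alternative, with the smallest adjusted p in limma 0.175 (SP5, KL-FL against KL1, array weights of 6.76 to 0.265). The filter on dim genes dropped LGR5, LEF1, ASCL2 and SP5. Differences near 0 changed sign. With quantile normalization LGR5 was at -0.016 and the median of the 9 at -0.015 (KL-FL against control), LEF1 at -0.0088 (KL1 against control), and ZNRF3 at -0.016 and both NOTUM and the median at -0.0065 (KL-FL against KL1). With arrays centred on their medians these were -0.0036 for LGR5, -2.5e-05 for ZNRF3 and the median, and -0.00076 for NOTUM. With array weights NKD1 was at 0.00084, ZNRF3 at -0.0077 and the median at 0.020 (KL-FL against KL1). With an array left out, KL-FL against control ran from -0.056 to 0.0095 for ASCL2, -0.0091 to 0.0034 for AXIN2, -0.015 to 0.020 for LGR5, -0.051 to 0.044 for SP5 and -0.0061 to 0.0034 for the median. KL1 against control ran from -0.0047 to 0.078 for ASCL2, -0.0040 to 0.028 for LEF1, -0.026 to 0.0052 for NKD1, -0.022 to 0.0032 for RNF43 and -0.016 to 0.0048 for the median. KL-FL against KL1 ran from -0.0013 to 0.025 for LEF1, -0.017 to 0.014 for NKD1, -0.033 to 0.044 for NOTUM, -0.095 to 3e-05 for SP5, -0.023 to 0.027 for ZNRF3 and -0.0096 to 0.021 for the median.

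Over all genes, the 1 call in each comparison with control became 0 with the replicate block, with each gene's own variance and with every probe set tested, and for KL-FL also with only the 6 arrays compared. With array weights the counts were 523, 2 and, for KL-FL against KL1, 1 (1 also with own variance). With an array left out both counts ran from 0 to 1. The KL-FL call ended without KL-FL replicate 1, KL1 replicate 1 or 3, or any control, and the KL1 call without any KL1 or control array. The cause was not tested.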

Other observations

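In 57.1% of the 33297 probe sets, 2 or more of the 9 arrays hold exactly the median value of the row, to every deposited digit. Of the 9 Wnt target genes 8 do: SP5 has 4 such arrays, LGR5 and LEF1 have 3 each, AXIN2, NKD1, RNF43, ZNRF3 and NOTUM have 2 each, and ASCL2 has the 1 that is its median. Such ties set some of the within-group SDs given above, as for the SP5 controls. They also cross groups: KL-FL replicate 3, KL1 replicate 1 and control replicates 1 and 3 share the SP5 value. The differences, SEs, intervals and p-values given above were computed from values with these ties, and the effect of the ties was not tested.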
